A study of Homo sapiens with 4 samples.

Results

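The ABCA subfamily of ATP-binding cassette transporters was described in the established human ovarian carcinoma line SKOV3 and in its cisplatin-resistant derivative. The members were chosen by symbol, as the rows of the deposited count table whose gene symbol is ABCA1, ABCA2, ABCA3, ABCA4, ABCA5, ABCA6, ABCA7, ABCA10, ABCA12 or ABCA13, 10 genes of the 65988 in the table. A gene with no reads in any library was treated as not measured, so the read counts bore on membership. The list was drawn up with results of these libraries known, so the calls below describe the members and are not independent evidence. All 10 members had reads in every library, and all 10 passed the filter on low counts, as did 18602 genes in all. Among the members ABCA13 was nearest to that limit, with 74 reads over the 4 libraries. ABCA9, with 55 reads, and ABCA8, with 1 read in resistant replicate 2, are subfamily genes that the list does not hold. Of these ABCA9 passed the filter and ABCA8 did not. The pseudogene ABCA11P had no reads and is wholly covered by other genes, so it was not measured.

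There were 2 libraries of wild-type SKOV3 cells, labelled as cisplatin susceptible, and 2 of resistant SKOV3 CR cells. The resistant line was derived from the wild-type cells by 6 cycles of cisplatin at rising concentrations over 5 months, each of 4 hours with the drug followed by 3 weeks without it. Cells of both groups were collected in ordinary medium during log growth, with no drug present. The labels describe 1 selection and give no second resistant line and no line passaged as long without cisplatin, so resistance and other divergence of the line cannot be told apart.

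ABCA proteins are large single-chain transporters that hold a pair of transmembrane domains and a pair of ATP-binding domains, and most of those that have been studied move lipids across or out of membranes. ABCA1 passes cholesterol and phospholipid to apolipoprotein A-I on the cell surface, the first step in forming high-density lipoprotein, and its gene is switched on by the oxysterol receptors LXR-alpha and LXR-beta. Others serve specialised cells: ABCA3 loads surfactant phospholipid into the lamellar bodies of lung type 2 cells, ABCA4 moves retinoid-lipid adducts in photoreceptors, and ABCA12 loads glucosylceramide into the lamellar granules of keratinocytes. ABCA1 messenger RNA is also a well-known target of the microRNAs miR-33a and miR-33b, which lie in introns of SREBF2 and SREBF1.

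The promoter windows of 3 members are shown because the member with the largest change, the sterol-controlled member and a weakly expressed member differ in them. Those of ABCA3, ABCA1 and ABCA10 were taken from RefSeq (GRCh38.p14), from 250 bases before to 50 bases after the annotated start, read on the minus strand. They lie at chr16:2340679-2340978, chr9:104928106-104928405 and chr17:69244799-69245098. Capitals mark the GC box GGGCGG on either strand and, in ABCA1 alone of the 3, a direct repeat of the kind that LXR binds.
ABCA3: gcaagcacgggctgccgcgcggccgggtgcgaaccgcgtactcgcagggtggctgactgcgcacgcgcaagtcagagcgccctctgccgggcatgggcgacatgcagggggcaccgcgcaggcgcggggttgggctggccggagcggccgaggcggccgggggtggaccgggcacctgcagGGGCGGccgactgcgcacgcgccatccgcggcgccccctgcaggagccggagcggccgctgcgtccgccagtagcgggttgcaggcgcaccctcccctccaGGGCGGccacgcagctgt
ABCA1: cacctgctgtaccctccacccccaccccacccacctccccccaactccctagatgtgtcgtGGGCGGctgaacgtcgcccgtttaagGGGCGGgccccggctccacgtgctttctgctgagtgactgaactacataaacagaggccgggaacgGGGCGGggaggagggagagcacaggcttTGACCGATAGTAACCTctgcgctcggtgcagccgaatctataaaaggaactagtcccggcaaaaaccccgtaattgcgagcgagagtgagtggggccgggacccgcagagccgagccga
ABCA10: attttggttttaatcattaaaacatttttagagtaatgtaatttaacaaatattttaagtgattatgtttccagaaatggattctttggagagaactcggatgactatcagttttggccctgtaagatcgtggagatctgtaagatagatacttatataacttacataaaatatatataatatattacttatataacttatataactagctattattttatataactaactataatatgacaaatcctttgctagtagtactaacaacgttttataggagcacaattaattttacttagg
The repeat was searched on both strands as AGGTCA, any 4 bases and AGGTCA again, with up to 1 mismatch in each AGGTCA, and such a match was in 1.38% of 35116 promoter windows. In ABCA1 it began at position -69 from the annotated start. GGGCGG was in 44.95% of all windows, with 2 matches in ABCA3, 3 in ABCA1 and 0 in ABCA10. The dinucleotide CG occurred 42 times in the ABCA3 window, 23 times in ABCA1 and 3 times in ABCA10, against a median of 14 over all windows, and 95.02% of windows had as few as ABCA3 or fewer. Of the 10 members 9 had an entry, and ABCA4 had none. The windows of ABCA5 and ABCA7, which held 45 and 29 CG, were rich in it as well, and those of ABCA6 and ABCA13 held 2 and 3. ABCA2, ABCA10 and ABCA12 have several annotated starts, and the windows of ABCA2 held 16 and 66 CG. A match describes the letters of the window and is not evidence of binding.

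The microRNAs are shown with their shared seed, bases 2 to 8, in capitals, beside the matching sites in the 3' untranslated region of ABCA1. The microRNAs themselves were not measured in these libraries.
hsa-miR-33a-5p: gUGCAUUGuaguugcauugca
hsa-miR-33b-5p: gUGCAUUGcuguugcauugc
ABCA1 site 1: ctgatactattCAATGCAatgcaattcaat
ABCA1 site 2: actattcaatgCAATGCAattcaatgcaat
ABCA1 site 3: gcaatgcaattCAATGCAatgaaaacaaaa
ABCA1 site 4: tttaattgcaaCAATGCAaaagccaagaaa
Capitals in the sites mark CAATGCA, the complement of the seed, searched on the transcript strand of 1 GENCODE 29 principal transcript a gene. The sites begin at bases 135, 140, 150 and 1475 of the 3313 bases of that region, and sites 1 and 2 overlap. Of 633 untranslated regions within 10% of that length, ABCA1 included, 18.3% held at least 1 such match and 0.316% held at least 4. None was in the regions of ABCA4, ABCA5, ABCA6, ABCA10, ABCA12 and ABCA13, and ABCA2, ABCA3 and ABCA7 were not searched.

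Library totals ran from 43658695 to 79592903 counts, so that 1 CPM (the count scaled to the library size after TMM normalization) stood for 42.6 to 83.1 reads. Among the 10 genes listed as markers of the line, ERBB2 stood at 5509 ± 368 CPM in wild-type cells and at 2457 ± 542 CPM in resistant ones. All 10 had reads, and 7 of them fell and 1 rose, where 23.2% and 22.1% of all tested genes did. The summed level of the 10 was 6616 and 7282 CPM in wild-type libraries and 3497 and 2845 CPM in resistant libraries. ERBB2 made up most of these sums, and the log2 changes of the 10 genes ran from -6.83 to 1.24. Of the 8 leukocyte markers none exceeded a mean of 1 CPM, and CD68 among them is wholly covered by other genes. The sum of the 8 was 0.352 and 1.29 CPM in the wild-type libraries and 0.465 and 0.770 CPM in the resistant ones. The sum of 8 endothelial and fibroblast markers was 12.1 and 9.68 CPM in the wild-type libraries and 38.5 and 27.8 CPM in the resistant ones. Within that sum DCN rose from a mean of 0.0567 to 26.7 CPM and LUM from 0.812 to 5.06 CPM. PECAM1 fell from a mean of 8.93 to 0.81 CPM and VWF from 0.509 to 0.021 CPM. THY1, wholly within other genes, was listed at 0. The part of these genes in the results below was not tested. Levels below are means ± SD of 2 libraries in CPM, and log2 changes are resistant over wild-type, with their SE.

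The comparison asks which transcripts differ between the resistant line and its parent when neither is exposed to the drug. Among the ABCA genes, 5 were lower in resistant cells (ABCA1, ABCA3, ABCA4, ABCA5 and ABCA7) and 0 were higher at a Benjamini-Hochberg adjusted p under 0.05 over all genes in edgeR's quasi-likelihood test. Over all 18602 tested genes 45.3% were called in either direction, 23.2% lower and 22.1% higher, so the total of 5 called of 10 is close to the background. At an unadjusted p under 0.05 in edgeR 1 member, ABCA12, was higher, and DESeq2 and limma-voom called 0 higher. In edgeR 1 member was called higher with library totals in place of TMM scaling (ABCA12) and 1 without wild-type replicate 2 (ABCA13). The count of members called lower was 3 without wild-type replicate 1, where the calls of ABCA1 and ABCA5 were lost. In 6 members both resistant libraries lay below both wild-type libraries, against 36.4% of all tested genes, and in ABCA12 both lay above, against 37.2%. The median log2 change of the members was -0.44, beside 0.003 over all tested genes. The size of the change ran from 27.7-fold for ABCA3 and 13.4-fold for ABCA4 down to 1.31-fold for ABCA5 among the called genes. In bulk RNA, fewer cells that express a gene and less of its RNA in each cell cannot be told apart.

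**Figure D1:**
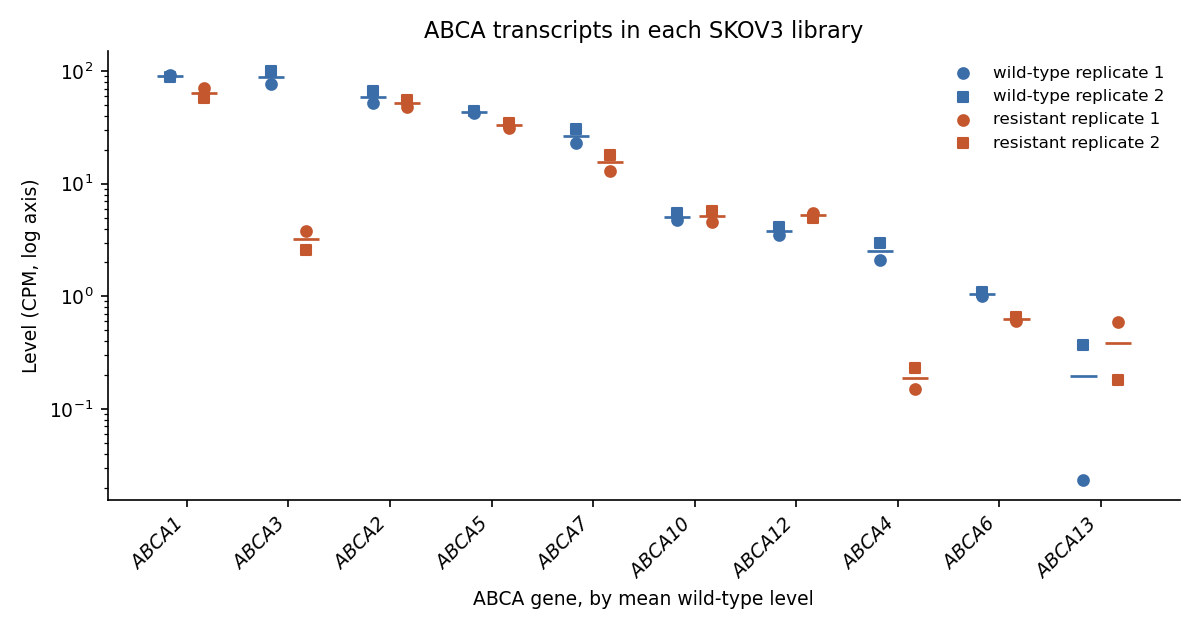
Level of each ABCA gene in each of the 4 libraries, in CPM on a log axis, ordered by mean wild-type level, with horizontal bars at the group means. ABCA3 is at 77.1 and 100.04 CPM in wild-type libraries and at 2.59 to 3.81 CPM in resistant libraries, while ABCA10 overlaps between the groups.

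ABCA3 had 77.1 and 100.04 CPM in wild-type replicates 1 and 2, and 3.81 and 2.59 CPM in resistant replicates 1 and 2. Both resistant libraries were far below both wild-type libraries, and the libraries of a group differed by at most 1.47-fold. From 88.6 ± 16.2 to 3.20 ± 0.866 CPM, ABCA3 fell by 4.80 ± 0.21 on the log2 scale (edgeR adjusted p = 2.11e-08). Of all tested genes, 230 (1.24%) were called with a log2 change at least as low. The gene lies on the minus strand of chromosome 16 (2275881 to 2340746, GRCh38) and only 3.11% of its span is covered by other genes. Leaving out each library in turn gave log2 changes from -5.09 to -4.53.

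In lung type 2 cells ABCA3 is made with the surfactant proteins, whose genes were listed here with few reads or at 0. Of the 8 type 2 markers, SFTPA1, SFTPA2, NAPSA and NKX2-1 were listed at 0 in every library, the last 2 of them wholly within other genes, and SFTPB, SFTPC and SFTPD had at most 13 reads in any library. Their summed level was 1.55 and 2.32 CPM in the wild-type libraries and 1.10 and 0.9502 CPM in the resistant ones, most of it from the lysosomal protein gene LAMP3. LAMP3 had a log2 change of -1.09 ± 0.42 (edgeR adjusted p = 0.0521), which was -1.49 without wild-type replicate 1 (edgeR adjusted p = 0.00145) and -0.48 without wild-type replicate 2 (edgeR adjusted p = 0.49).

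The pseudogene ABCA17P begins head to head with ABCA3, and their spans share 1597 bases, so that the ABCA3 promoter window printed above lies within ABCA17P. ABCA17P had 1.97 and 1.4998 CPM in wild-type replicates 1 and 2, and 0.645 and 0.613 CPM in resistant replicates 1 and 2. Its groups did not overlap either, and it fell by 1.46 ± 0.37 on the log2 scale (edgeR adjusted p = 0.00781). The library kit keeps strand, but whether the counting used it is not given in the sources used here, so reads in the shared bases may be placed with either gene. The nearest tested protein-coding genes on either side of ABCA3 were the splicing factor gene RNPS1 and the cyclin gene CCNF. RNPS1 stood at 116 ± 2.90 CPM in wild-type cells and at 115.5 ± 9.48 CPM in resistant ones, and CCNF at 22.3 ± 0.183 and 22.4 ± 2.77 CPM, with log2 changes of -0.011 ± 0.11 and 0.0087 ± 0.14 (edgeR adjusted p = 0.946 and 0.967). In a window of 1 Mb centred on ABCA3, chosen after the values were seen, 16 of 38 other tested protein-coding genes fell and 4 rose. Their median log2 change was -0.34, and 23.2% of all tested genes fell and 22.1% rose. The lowest of these 38, the small GTPase gene RAB26, had a log2 change of -2.29, against -4.80 for ABCA3. In like windows, 11 of 40 genes fell and 2 rose around ABCA7, and 1 of 6 fell and 3 rose around ABCA4. Around ABCA1 0 of 3 fell and 2 rose, and around ABCA5 0 of 4 fell and 1 rose.

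**Figure D2:**
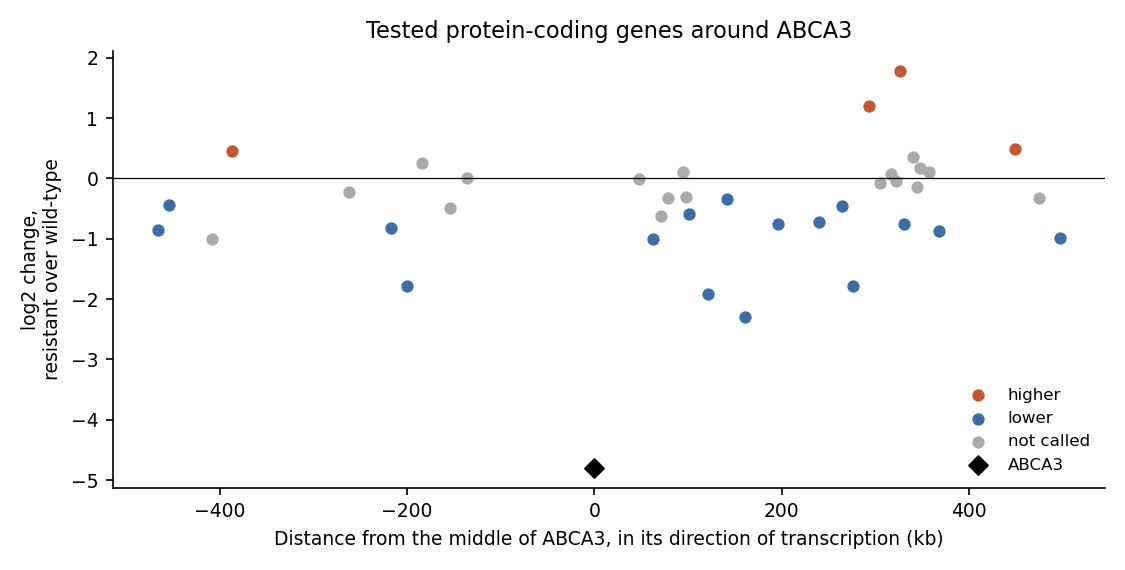
Log2 change, resistant over wild-type, of ABCA3 and of the 38 other tested protein-coding genes within a 1 Mb window, against distance in kb along its direction of transcription. ABCA3 at -4.80 lies below every other gene of the window, the lowest of which is at -2.29.

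ABCA4 was the other member with a large change, at a much lower level. It had 2.09 and 2.98 CPM in wild-type replicates 1 and 2 (89 and 153 reads), and 0.150 and 0.229 CPM in resistant replicates 1 and 2 (10 and 19 reads). The groups were well apart, and the libraries within the resistant group differed by 1.52-fold. ABCA4 fell by 3.71 ± 0.42 on the log2 scale (edgeR adjusted p = 3.99e-05), and its log2 change ran from -4.05 to -3.43 as each library was left out. It lies on chromosome 1 (93992835 to 94121132), and no other annotated gene meets its span.

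Of the 8 photoreceptor and pigment epithelium markers all had reads somewhere, but the rod transducin gene GNAT1 had at most 10 in a library. Their summed level was 34.05 and 32.02 CPM in the wild-type libraries and 27.7 and 23.8 CPM in the resistant ones, most of it RPE65, the retinoid isomerase, at 28.5 ± 0.396 and 18.6 ± 2.75 CPM. RPE65 fell by 0.61 ± 0.15 (edgeR adjusted p = 0.0059), PDE6B fell and PDE6A, the other large subunit of the rod phosphodiesterase, rose, while the other 5 were too low to be tested. The neighbours of ABCA4 went in opposite directions: the glutamate-cysteine ligase subunit gene GCLM rose by 0.74 ± 0.12 (edgeR adjusted p = 0.000605) and the GTPase regulator gene ARHGAP29 fell by 1.16 ± 0.11 (edgeR adjusted p = 7.34e-06).

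By the distance between mean-centred log2(CPM + 0.1) over the 4 libraries, the tested genes most like ABCA3 were CDHR1 (distance 0.228), NUP210 (0.281) and LINC01989 (0.294). NUP210, a nuclear pore gene, went from 187 to 7.84 CPM, and CDHR1, a cadherin-related gene, from 4.89 to 0.0751 CPM. Those most like ABCA4 were CKB (distance 0.0945), NPDC1 (0.139) and FAM20A (0.183). CKB, the brain-type creatine kinase, went from 189 to 20.04 CPM. These profiles hold 4 points in 2 groups, so genes of like change and like replicate spread on this scale score as alike. The added 0.1 shrinks changes at low CPM. The fitted log2 changes of CDHR1, NUP210 and LINC01989 were -6.02, -4.58 and -5.78, against -4.80 for ABCA3.

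**Figure D3:**
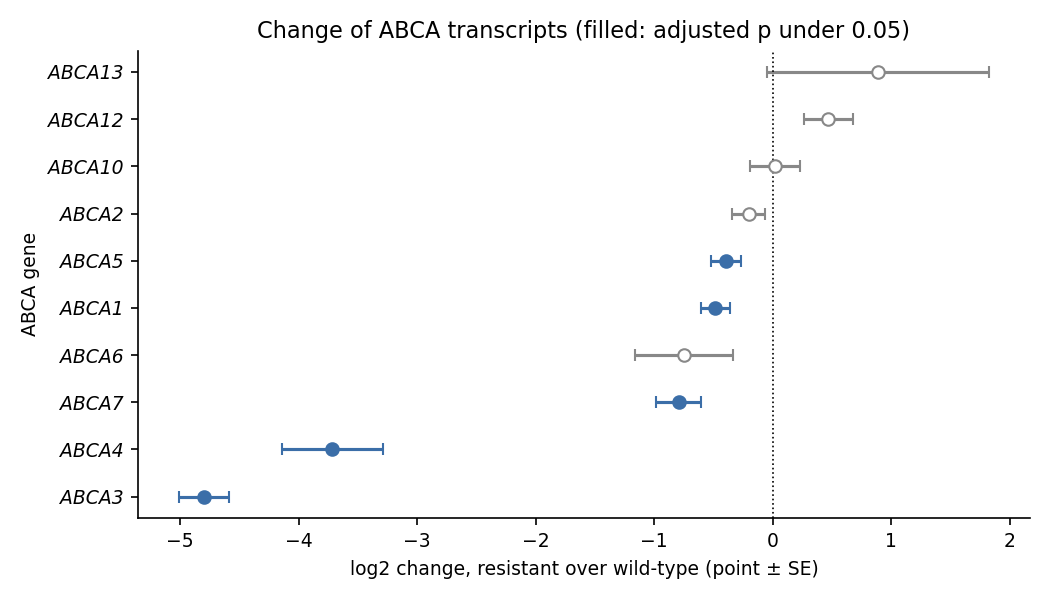
Log2 change, resistant over wild-type, of each ABCA gene (points) with its SE (bars), and a dotted line at the median of all tested genes, 0.003. ABCA3 and ABCA4 are at -4.80 and -3.71, and all others lie between -0.79 and 0.89.

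The sterol exporter ABCA1 was lower by a small amount. Its level was 91.7 and 88.7 CPM in wild-type replicates 1 and 2, and 70.9 and 58.3 CPM in resistant replicates 1 and 2. Both resistant libraries lay below both wild-type libraries, though they differed from each other by 1.22-fold. From 90.2 ± 2.15 to 64.6 ± 8.91 CPM, ABCA1 fell by 0.48 ± 0.13 on the log2 scale (edgeR adjusted p = 0.00933). The call was lost without wild-type replicate 1 (-0.45, edgeR adjusted p = 0.0526), and over all alternatives the adjusted p ranged from 0.000454 to that value. ABCA1 lies on chromosome 9 (104781002 to 104928237), and its nearest tested neighbours moved the other way. NIPSNAP3B rose by 1.05 ± 0.16 (edgeR adjusted p = 0.000326) and the choline transporter gene SLC44A1 rose by 0.72 ± 0.11 (edgeR adjusted p = 0.00041).

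ABCA7, a phospholipid transporter close to ABCA1 in sequence and tied to phagocytosis and to Alzheimer disease risk, was also lower. It had 23.1 and 30.4 CPM in wild-type replicates 1 and 2, and 12.9 and 18.02 CPM in resistant replicates 1 and 2. The groups did not overlap, and replicate 1 was the lower library in both. ABCA7 fell by 0.79 ± 0.19 on the log2 scale (edgeR adjusted p = 0.00573), with values from -1.05 to -0.57 as each library was left out and a call in each case. It lies on the plus strand of chromosome 19 (1040101 to 1065572), 350 bases from HMHA1 and 1032 bases from CNN2. CNN2, which encodes a calponin, had a log2 change of 0.016 ± 0.12 (edgeR adjusted p = 0.927). HMHA1, a GTPase regulator gene, had one of 0.29 ± 0.20 (edgeR adjusted p = 0.258), which was called without resistant replicate 1 (0.57, edgeR adjusted p = 0.00871).

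ABCA2, a transporter of late endosomes and lysosomes that is abundant in brain, was not called. It had 52.4 and 66.5 CPM in wild-type replicates 1 and 2, and 48.01 and 55.3 CPM in resistant replicates 1 and 2. The groups overlapped, since resistant replicate 2 was above wild-type replicate 1. Its log2 change was -0.20 ± 0.14 (edgeR adjusted p = 0.272). ABCA2 lies on chromosome 9 (137007227 to 137028922), far from ABCA1.

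ABCA5, ABCA6 and ABCA10 lie in a row on the minus strand of chromosome 17, together with ABCA8 and ABCA9, and 1 of the 3 was called. ABCA5, a lysosomal transporter at 69244311 to 69327244, had 42.2 and 44.4 CPM in wild-type replicates 1 and 2, and 31.5 and 34.5 CPM in resistant replicates 1 and 2. The groups were apart and the libraries within each were close. ABCA5 fell by 0.39 ± 0.13 on the log2 scale (edgeR adjusted p = 0.0247). That call was lost without wild-type replicate 1 (-0.42, edgeR adjusted p = 0.0964), without wild-type replicate 2 (-0.35, edgeR adjusted p = 0.178), without resistant replicate 1 (-0.32, edgeR adjusted p = 0.0891), and with library totals in place of TMM scaling (-0.30, edgeR adjusted p = 0.0769).

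ABCA10, at 69147214 to 69244846, begins within the last bases of ABCA5 on the same strand, with 536 bases in both spans. It had 4.74 and 5.47 CPM in wild-type replicates 1 and 2, and 4.56 and 5.79 CPM in resistant replicates 1 and 2. The resistant libraries bracketed the wild-type libraries, and the log2 change was 0.019 ± 0.21 (edgeR adjusted p = 0.952). How far reads running on from ABCA5 add to ABCA10 was not tested. ABCA6, at 69078702 to 69141888, had 1.01 and 1.09 CPM in wild-type replicates 1 and 2, and 0.600 and 0.649 CPM in resistant replicates 1 and 2. Its groups did not overlap, but these are only 40 to 56 reads a library, and the log2 change of -0.75 ± 0.41 was not called (edgeR adjusted p = 0.165). Beyond ABCA5, the kinase gene MAP2K6 rose by 0.61 ± 0.20 (edgeR adjusted p = 0.03). Without wild-type replicate 2 (0.38, edgeR adjusted p = 0.266) or resistant replicate 1 (0.54, edgeR adjusted p = 0.0582) MAP2K6 was not called. ABCA9, over 50% covered by other genes, had 6 and 1 reads in wild-type replicates 1 and 2, and 14 and 34 in resistant replicates 1 and 2. Its log2 change of 2.00 ± 0.92 was not called (edgeR adjusted p = 0.0988), but was 3.89 without wild-type replicate 1 (edgeR adjusted p = 0.0257) and 1.14 without wild-type replicate 2 (edgeR adjusted p = 0.408).

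ABCA12, the keratinocyte glucosylceramide transporter, was the only member whose resistant libraries both lay above the wild-type libraries. It had 3.48 and 4.09 CPM in wild-type replicates 1 and 2, and 5.55 and 4.96 CPM in resistant replicates 1 and 2. The log2 change of 0.47 ± 0.21 did not pass (edgeR adjusted p = 0.0887), except with library totals in place of TMM scaling (0.57, edgeR adjusted p = 0.043). ABCA12 lies on chromosome 2 (214931542 to 215138428) and other genes cover 54.4% of its span, so its values are less certain. Of the 10 markers of differentiated keratinocytes, FLG, LOR, IVL and KRT1 were listed at 0 in every library, FLG being wholly within another gene. Their summed level was 35.9 and 40.05 CPM in the wild-type libraries and 41.4 and 52.4 CPM in the resistant ones. Nearly all of it came from KRT10, 77.9% covered by other genes, and the transglutaminase TGM1. Of the 4 keratinocyte markers tested, TGM3 and ALOX12B, both under 1 CPM, fell and 0 rose. The part of the markers of other cell types in the values of ABCA3, ABCA4 and ABCA12 was not tested.

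ABCA13, the member with the longest annotated exons, had the fewest reads over the 4 libraries. It had 1 and 19 reads in wild-type replicates 1 and 2, and 39 and 15 in resistant replicates 1 and 2. The libraries of a group differed from each other more than the groups did, and its log2 change was 0.89 ± 0.94 (edgeR adjusted p = 0.473). Without resistant replicate 1 the log2 change was -0.15 (edgeR adjusted p = 0.952). Without wild-type replicate 2 the comparison rests on 1 wild-type read, a ratio of 15.4 (95% exact binomial interval 2.64 to 618, for counting error only), and was called (edgeR adjusted p = 0.0191).

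To compare genes with each other, levels were divided by the length of all annotated exons of a gene, giving RPKM. In wild-type cells ABCA3 led with 9.88 and 12.8 RPKM in replicates 1 and 2, then ABCA1 (8.08 and 7.82), ABCA2 (4.55 and 5.78), ABCA5 (3.21 and 3.37) and ABCA7 (2.76 and 3.64). Of these neighbours in the order only ABCA5 and ABCA7 overlapped. The lead of ABCA3 rests on the exon lengths used, 7804 bases for ABCA3 and 11350 for ABCA1. In CPM, ABCA3 stood at 88.6 ± 16.2 and ABCA1 at 90.2 ± 2.15 in wild-type cells. The remaining genes stood at 0.608 (ABCA10), 0.402 (ABCA12), 0.297 (ABCA4), 0.0742 (ABCA6) and 0.0103 (ABCA13) mean RPKM. In resistant cells ABCA1 led with 6.25 and 5.14 RPKM in replicates 1 and 2, and ABCA3 was the seventh of the 10 genes with 0.488 and 0.331. There the overlapping neighbours were ABCA10 with ABCA12 and ABCA4 with ABCA13, while ABCA5 and ABCA7 were apart.

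The summed level of the 10 genes was 29.7 and 35.0 RPKM in wild-type and 16.1 and 16.4 RPKM in resistant libraries. ABCA3 made up 33.2% and 36.7% of it in wild-type replicates 1 and 2, and 3.04% and 2.03% in resistant replicates 1 and 2. Without ABCA3 the sum was 19.9 and 22.1 RPKM in wild-type and 15.6 and 16.02 RPKM in resistant libraries, so the groups stayed apart. The share of ABCA1 was 27.2% and 22.4% in wild-type and 38.9% and 31.4% in resistant libraries, though its own level was lower there.

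**Figure D4:**
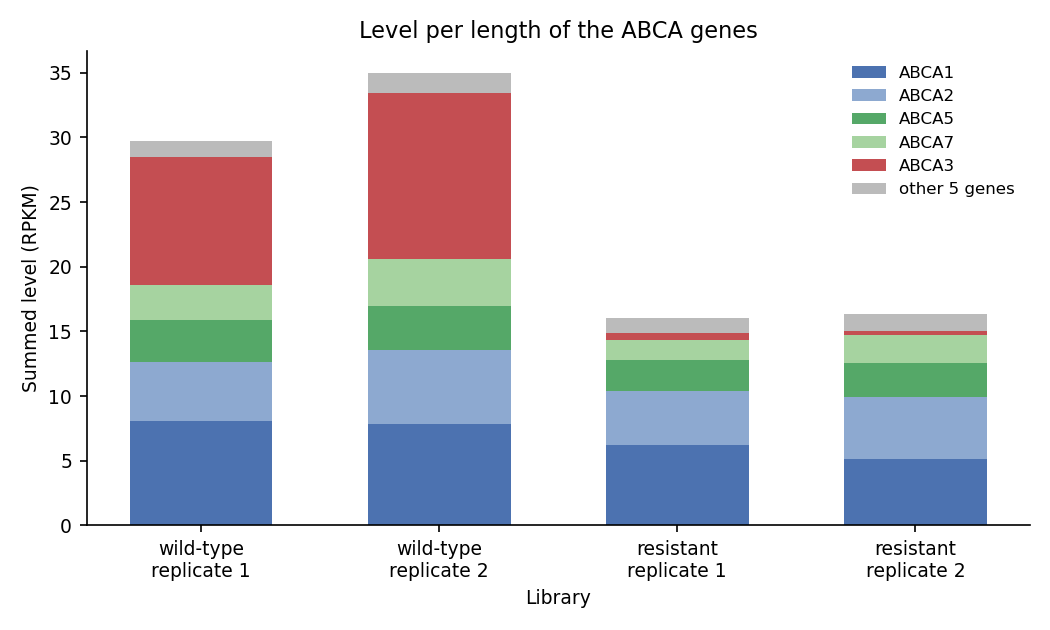
Level per length of the ABCA genes stacked for each library, in RPKM, with the other 5 genes joined. The total is 29.7 and 35.0 RPKM in wild-type and 16.1 and 16.4 RPKM in resistant libraries, and the ABCA3 segment shrinks from 9.88 and 12.8 RPKM to 0.488 and 0.331.

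LXR works as a dimer with RXR, and the genes it controls in other tissues export cholesterol or make fatty acids. Of a list of 24 such receptors and targets other than ABCA1, 20 were tested, of which 14 fell and 2 rose, where 23.2% and 22.1% of all tested genes did. Their median log2 change was -0.77. The RXR genes RXRB and RXRA went in opposite directions. RXRB, at 69.5 ± 1.55 CPM in wild-type cells, fell by 0.31 ± 0.11 (edgeR adjusted p = 0.0434). Of the LXR genes 1 passed the test: LXR-alpha (NR1H3) fell from 14.96 ± 0.496 to 7.96 ± 0.116 CPM (-0.91 ± 0.16, edgeR adjusted p = 0.000716), while LXR-beta (NR1H2) had 55.3 ± 13.2 and 42.2 ± 3.42 CPM (-0.39 ± 0.16, edgeR adjusted p = 0.0684). NR1H2 was called without wild-type replicate 1 (-0.61, edgeR adjusted p = 0.00802) and without resistant replicate 2 (-0.47, edgeR adjusted p = 0.0287). RXRA rose by 0.48 ± 0.12 (edgeR adjusted p = 0.00835), a call lost without wild-type replicate 1 (0.41, edgeR adjusted p = 0.0968).

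ABCG1, which exports cholesterol to high-density lipoprotein and is an LXR target as ABCA1 is, had 61 and 147 reads in wild-type replicates 1 and 2, and 2 and 3 in resistant replicates 1 and 2. It was nearly lost, from 2.15 ± 1.01 to 0.0330 ± 0.0043 CPM, and fell by 5.93 ± 0.62 on the log2 scale (edgeR adjusted p = 1.99e-05), with a value of -5.34 without wild-type replicate 2. ABCA1 thus fell by 0.48 and ABCG1 by 5.93 in the same libraries. The lipid droplet coat gene PLIN2 fell by 3.64 ± 0.37 (edgeR adjusted p = 1.59e-05), and SREBF1, an LXR target and the host gene of miR-33b, from 99.1 ± 17.3 to 34.3 ± 2.69 CPM (-1.53 ± 0.14, edgeR adjusted p = 8.11e-06). PLTP, a phospholipid transfer protein gene, went the other way, from 0.476 ± 0.0426 to 3.11 ± 0.450 CPM. The lipid acceptor gene APOE had 0.675 ± 0.0917 and 0.491 ± 0.122 CPM (-0.45 ± 0.50, edgeR adjusted p = 0.487).

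Of 20 apolipoprotein genes, ABCA1 partners and miR-33 host genes, 18 were tested, with a median log2 change of -0.37. Of these 18, 9 fell and 2 rose (50% and 11.1%), where 23.2% and 22.1% of all tested genes did. This list shares SREBF1, PLTP, APOE and APOC1 with the LXR list. The LXR list in turn shares ABCG1 and ABCG4 with the ABC genes below, so the lists are not separate evidence. SREBF2, the host gene of miR-33a and the main activator of sterol synthesis genes, fell from 358 ± 29.1 to 149.9 ± 4.47 CPM (-1.26 ± 0.11, edgeR adjusted p = 6.09e-06). ABCA1 and both host genes of the microRNAs that target it were lower in resistant cells. APOA1, the acceptor of ABCA1, was listed at 0 in every library and is 83.4% covered by other genes, so it was not measured. The serine palmitoyltransferase gene SPTLC1, whose protein binds ABCA1, rose by 0.79 ± 0.12 (edgeR adjusted p = 0.000346).

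**Figure D5:**
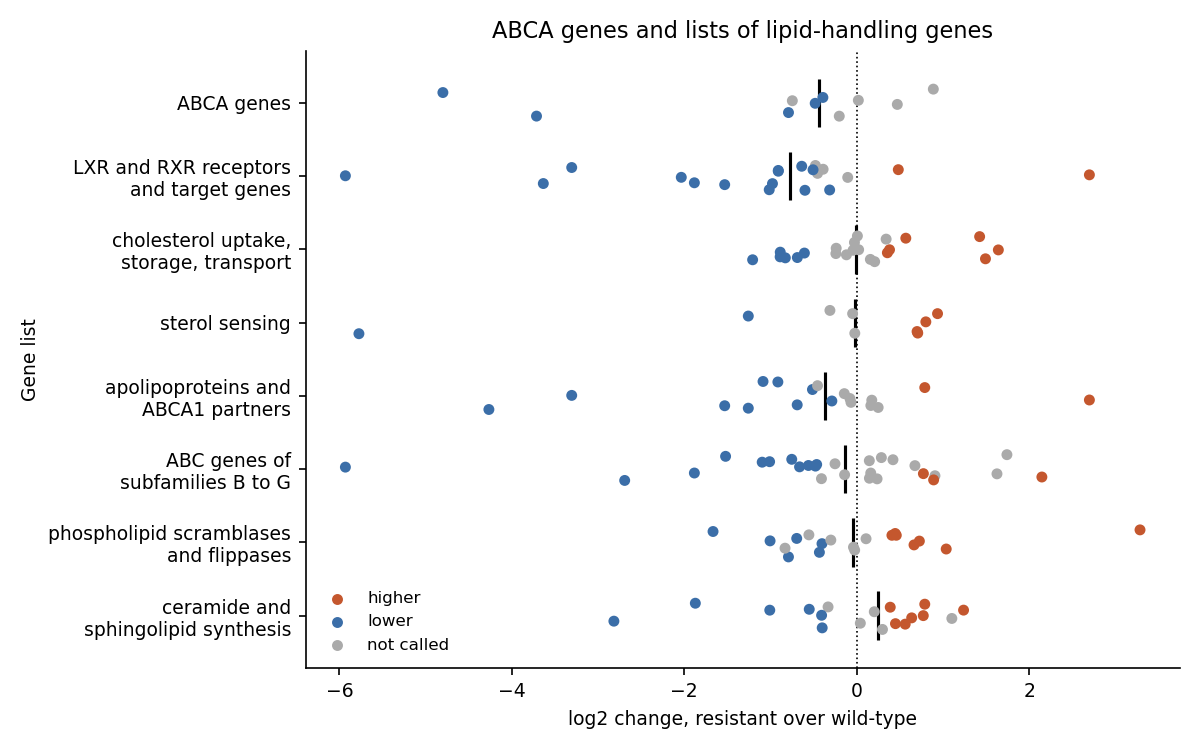
Log2 change, resistant over wild-type, of each tested gene (points) in the ABCA subfamily and in 7 lists. The lists hold genes tied to lipid handling, except that of the ABC genes of subfamilies B to G, not all of which handle lipids. Thick marks are at list medians, and a dotted line is at the median of all tested genes. The median is -0.44 for the ABCA genes and -0.77 for the LXR list, and it is -0.0094 for cholesterol uptake, storage and transport.

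Of 22 tested genes that bring in, store and move cholesterol, 6 rose and 6 fell (27.3% each), with a median of -0.0094. These shares are near those of all tested genes, of which 22.1% rose and 23.2% fell. The endoplasmic reticulum sterol transporter GRAMD1B rose by 1.64 ± 0.21 and the fatty acid binding protein FABP5 by 1.49 ± 0.16, while the oxysterol binding protein gene OSBPL2 fell by 1.21 ± 0.13 and VLDLR, over 50% covered by other genes, fell by 0.89 ± 0.13 (edgeR adjusted p from 1.86e-05 to 0.000264). Among 9 sterol sensing genes 4 rose and 2 fell (44.4% and 22.2%), with a median of -0.022. The protease gene MBTPS2 and the retention protein gene INSIG1 rose by 0.94 ± 0.19 and 0.80 ± 0.12 (edgeR adjusted p = 0.00208 and 0.000298), and SREBF2, described above, was among those that fell.

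The ABC genes of subfamilies B to G gave the nearest comparison. Of 36 listed, 27 were tested, of which 11 fell and 3 rose (40.7% and 11.1%), with a median log2 change of -0.14. Of the 10 ABCA genes 5 fell and 0 rose, with a median of -0.44. Over all tested genes 23.2% fell and 22.1% rose, with a median of 0.003. Apart from ABCG1, the largest fall among the B to G genes with at least 1 CPM was in ABCG4 (-1.88 ± 0.36, edgeR adjusted p = 0.00145), a sterol exporter of brain. The largest rises were in the conjugate pump ABCC2 (2.15 ± 0.15, edgeR adjusted p = 6.83e-07) and in ABCE1, a ribosome recycling factor (0.89 ± 0.24, edgeR adjusted p = 0.0108). The rise of ABCE1 was not called without resistant replicate 1 (0.42, edgeR adjusted p = 0.076), and over 50% of its span is covered by other genes. In the 12 lipid-handling genes of these subfamilies 9 were tested, of which 4 fell and 0 rose (44.4% and 0%), with a median of -0.41. Whether the ABCA genes differ from the other ABC genes was not tested.

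Other lipid pathways that meet ABCA substrates had genes called in both directions. So did all tested genes, of which 22.1% rose and 23.2% fell. Among phospholipid flippases and scramblases, which move lipids between membrane leaflets, 7 of 19 rose and 6 fell (36.8% and 31.6%). Their median was -0.038. The scramblase ANO6 rose by 1.04 ± 0.15 and the flippase ATP10D by 0.73 ± 0.17, while ATP8A1 fell by 1.67 ± 0.17 and ATP10A fell by 1.01 ± 0.17 (edgeR adjusted p from 1.59e-05 to 0.00418). In ceramide and sphingolipid synthesis 7 of 18 rose and 6 fell (38.9% and 33.3%), with a median of 0.25. The fatty acid elongase ELOVL4 rose by 1.24 ± 0.14, while the palmitoyltransferase subunit SPTLC3 fell by 1.87 ± 0.17 and the ceramide transfer protein gene COL4A3BP fell by 1.01 ± 0.14 (edgeR adjusted p from 6.1e-06 to 0.000151).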

How the data were processed

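RNA was sequenced from 2 wild-type and 2 cisplatin-resistant SKOV3 libraries, which the series' text calls biological replicates. The labels do not say whether these were separate cultures, so p-values may measure technical spread. The deposited table holds unnormalized whole-number counts. The submitters' processing notes name STAR 2.5.1a, GRCh38.p7 and, with no version, HTSeq and DESeq. How reads were assigned to genes, and by which annotation, was not stated there. The library kit keeps strand, per the labels' protocols. A deposited normalized signal equals the count divided by 1 factor per library (0.725 to 1.42, per the deposited tables) and was not tested.

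Differences were tested on the counts by edgeR 4.0.16 under R 4.3.3 (quasi-likelihood F test, TMM, filterByExpr with minimum count 10 and total 15, group as the only term), with Benjamini-Hochberg adjustment over 18602 genes. The code was checked on simulated counts. SE is the log2 change divided by the square root of F. Members and lists were chosen with earlier results of these data known. Text names all members, fixed regulators, the largest called changes of each list, the nearest neighbours and the 3 genes most like ABCA3 and ABCA4, except for genes that are not reported here. Positions, exon lengths and covered spans are from GENCODE 29. Genes wholly within others are often listed at 0, and those at 0 were treated as not measured. Intervals cover counting error only. Alternatives used DESeq2 1.42.0, limma 3.58.1 (voom), other scalings and filters, a replicate block and each library left out. Python 3.11.15 drew the figures.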

Additional observations from a re-analysis of the deposited data

How the results depend on the processing

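Over all genes, 4112 were called higher and 4308 lower, and no alternative moved either count by over 1.5 times (3330 to 4942 and 3417 to 4879), leave-one-out fits giving 3330 to 4022 and 3417 to 4159. The ABCA genes called lower numbered 5, or 4 with library totals and 3 to 5 as each library was left out, with 3 without wild-type replicate 1. Those called higher numbered 0, or 1 with library totals (ABCA12) and 0 to 1 as each library was left out (ABCA13 without wild-type replicate 2). Library totals moved the median of all genes to 0.098. The sign of 2 uncalled members turned: ABCA10 was -0.070 without wild-type replicate 1 and -0.16 without resistant replicate 2, and ABCA13 was -0.15 without resistant replicate 1, within ranges of -0.16 to 0.19 and -0.15 to 3.91 (3.91 without wild-type replicate 2). The cause was not tested. ABCA3, ABCA4 and ABCA7 were called lower in every alternative. ABCA6 and ABCA13 were not tested under the filter that keeps genes with a mean of 1 CPM or more. With the replicate number as a block, edgeR called 4767 genes higher and 4879 lower, and 5 ABCA genes lower and 0 higher. Deviations of same-numbered libraries correlated at 0.247 across genes, and with 2 pairs and no label that ties them, the numbers were not taken as pairing. Depth limits ABCA13, ABCA6 and ABCA9, and 2 libraries a group limit every value.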
